A study of Homo sapiens with 16 samples.

Results

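IMR32 cells, a human neuroblastoma line with amplified MYCN, were transfected with si46, a small interfering RNA (siRNA) against TPX2, and compared with the same line transfected with siNTC, a non-targeting siRNA. Each group had 4 replicates, described as biological in the series design, and the column names give 48 h for both groups. These 8 libraries were taken by siRNA name from the 16 of the series, whose other 8 hold the TPX2 siRNAs si45 and si47. No drug or genetic change other than the siRNA is labelled, and the comparison rests on a single cell line. Of 58787 genes in the table, 14193 had enough reads to be tested. Libraries were made from total RNA with a kit that reads the 3' end of polyadenylated transcripts, so a transcript's length does not scale its read count. Levels are CPM, read counts scaled to a common library size, and a gene is called higher or lower where edgeR's quasi-likelihood test gave a Benjamini-Hochberg adjusted p under 0.05. The edgeR p-values weigh a difference between groups against the spread between replicates, estimated over all 16 libraries. Every fold change below is on the log2 scale, si46 minus siNTC, unless another pair is named.

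TPX2 is a microtubule-binding protein of the mitotic spindle that activates the kinase AURKA and helps microtubules form around chromosomes. Cells whose mitosis is delayed or faulty can stabilise p53, a transcription factor that switches on CDKN1A, MDM2 and cell death genes. CDKN1A blocks the cyclin-dependent kinases, which keeps RB-family repressor complexes on the promoters of replication genes (through E2F sites) and of mitotic genes (through a short element called CHR, the cell cycle genes homology region).

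Total counts were 5336540 to 6301696 in siNTC and 5437603 to 7864343 in si46 (two-sided exact permutation p = 0.83), and no pair of replicates matched within sampling noise. The labels give brain as tissue and neuroblast as cell type, and the latter was checked on its markers. All 10 adrenergic neuroblast markers were detected, with summed levels of 5658 to 6187 CPM in siNTC and 6197 to 7210 in si46. Of 9 mesenchymal neuroblastoma markers 6 passed the count filter, with sums of 497 to 572 and 515 to 632 CPM, and PRRX1 was at 0 in all 8 libraries. Of 8 Schwann or glial markers 1 passed the filter, with SOX10, S100B and CDH19 at 0 in all 8 libraries and sums of 5.72 to 10.4 and 8.48 to 10.4 CPM. The part of these small shifts in the results below was not tested.

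The targeted transcript was examined first. TPX2 (ENSG00000088325, chromosome 20, 31739271 to 31801805, plus strand, GRCh38) had levels of 315, 339, 297 and 359 CPM with siNTC, and of 90.9, 79.8, 93.8 and 62.2 CPM with si46. The groups were far apart, and TPX2 fell by 2.0 (SE 0.122, adjusted p = 6.0e-12, edgeR). The exact permutation test of 4 against 4 libraries gave p = 0.0286, the smallest it allows. AURKA, the kinase that TPX2 activates, had 168, 168, 156 and 190 CPM in siNTC and 148, 109, 133 and 138 in si46. Its groups did not overlap, but the change of -0.37 (SE 0.150) did not pass the threshold (adjusted p = 0.23).

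Across all genes tested, 482 were called (3.40%), 304 higher (2.14%) and 178 lower (1.25%) in si46. The higher genes rose by a median of 1.26 from a median control level of 8.81 CPM, and 174 of them rose at least 2-fold. The lower genes fell by a median of 0.47 from a median control level of 106.7 CPM, and 12 fell at least 2-fold. The 2 groups did not overlap for 441 of the called genes, against 1381 of all genes tested (9.73%). The median change over all genes was 0.0024. Leaving out si46 replicates 2, 3 and 4 in turn gave 252, 532 and 253 si46 vs siNTC genes changed, and leaving out siNTC replicates 1, 2 and 4 gave 293, 318 and 301. A set of 179 genes passed when each of the 8 libraries was left out in turn.

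**Figure D1:**
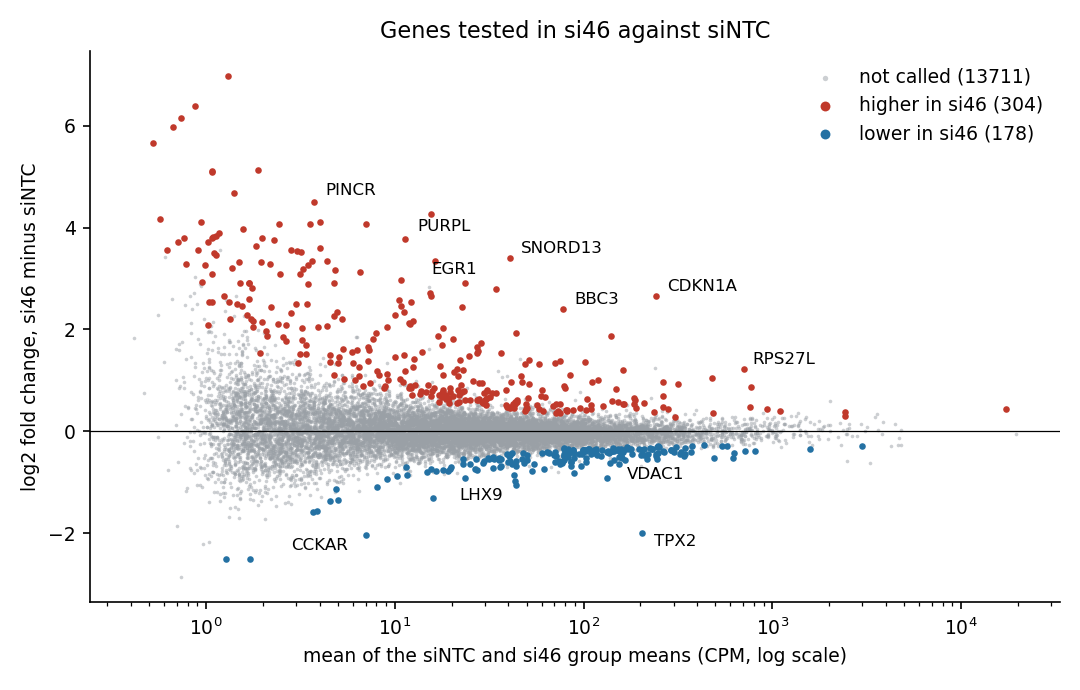
Each point is a gene tested, with the mean of the 2 group means on a log x axis in CPM and the log2 fold change, si46 minus siNTC, on the y axis. The 304 higher genes (red) spread widely and lie mostly at low levels, while the 178 lower genes (blue) form a narrow band close to 0, with TPX2 far below it.

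Targets of p53 rose in large number. The lists used, and those of mitosis, replication and repair below, were chosen with earlier results of these data known. Their counts describe and are no independent support. Of 83 tested members of 4 lists, 40 rose and none fell, with a median change of 0.57, beside 2.14% of all genes called higher. The mean log2(CPM + 1) of the members, as a score relative to the siNTC mean, was 0.60, 0.75, 0.55 and 0.75 in the si46 libraries and between -0.02 and 0.05 in siNTC. MDM4, an inhibitor of p53, did not pass (0.12, adjusted p = 0.56).

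The arrest and feedback targets were called most often, 19 of 26 tested. CDKN1A, the cyclin-dependent kinase inhibitor p21, had 58.5, 33.6, 83.4 and 91.3 CPM in siNTC and 379, 414, 365 and 509 in si46. Every si46 library was far above the highest control, and the change was 2.65 (SE 0.259, adjusted p = 7.3e-05, edgeR). MDM2, the ubiquitin ligase that degrades p53, rose from 104, 93.1, 92.3 and 104 CPM to 225, 263, 187 and 232 CPM (1.2). PPM1D, a phosphatase that dampens the DNA damage response, rose by 0.96, from 30.4 to 34.8 CPM across siNTC to 52.0 to 78.4 CPM across si46. The polo-like kinases PLK2 (2.44) and PLK3 (1.87), the antiproliferative gene BTG2 (1.46), and PHLDA3, an inhibitor of AKT (1.74), also rose. The sestrins SESN1 (1.57) and SESN2 (1.41) restrain mTORC1 and both passed. GDF15, a secreted stress cytokine, rose by 2.72, from 2.66 to 5.30 CPM in siNTC to 12.3 to 48.9 CPM in si46, but its adjusted p of 0.016 became 0.056 without siNTC replicate 1. E2F7 (0.02), CCNG2 (0.03) and SERTAD1 (0.12) did not pass.

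Among the p53 targets that act in cell death, 6 of 17 rose. BBC3 encodes PUMA, which frees BAX and BAK from their BCL2-type inhibitors. It had 21.2, 26.4, 24.8 and 26.7 CPM in siNTC and 130, 145, 97.8 and 152 in si46, a change of 2.41 (SE 0.245, adjusted p = 7.3e-05). The death receptor TNFRSF10B rose from 24.2 to 30.7 CPM across the controls to 63.0 to 85.5 CPM (1.33). The receptor EDA2R rose by 1.69 and the autophagy gene DRAM1 by 1.93. PMAIP1 (NOXA) rose by 0.49, with overlapping groups (52.7 to 62.6 CPM in siNTC, 60.6 to 109 in si46), and its adjusted p of 0.038 became 0.24 without si46 replicate 2. FAS (1.62, adjusted p = 0.30), BAX (0.58, adjusted p = 0.054), TP53I3 (0.18) and the apoptosome gene APAF1 (-0.02) did not pass. Of the 15 tested genes of the wider BCL2 family, BBC3 and PMAIP1 were the members called, both higher (over all genes, 2.14%). PMAIP1 lost its call without any one of 6 libraries.

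The DNA repair targets rose in 5 of 10 cases. RRM2B, a ribonucleotide reductase subunit for repair, went from 5.93, 6.26, 5.86 and 9.71 CPM to 14.3, 14.7, 14.0 and 20.3 CPM (1.18). ASCC3 (0.64) and XPC (0.54), which act on alkylation and ultraviolet damage, rose as well. DDB2 (0.77) and POLH (0.59) were called too, but their adjusted p reached 0.17 without siNTC replicate 1 for DDB2 and without si46 replicate 2 for POLH. The count of 5 was 3 without any one library other than si46 replicate 3 or siNTC replicate 4. PCNA, the replication clamp that p53 can also activate, was at 98.5 to 113 CPM in siNTC and 94.8 to 115 in si46 and did not pass (-0.05, adjusted p = 0.86).

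In the list of metabolic and other targets 10 of 30 rose. RPS27L, a small ribosomal protein paralogue and one of the most abundant p53 targets here, had 406, 400, 452 and 444 CPM in siNTC and 846, 1225, 888 and 1019 in si46. Its change was 1.22 (SE 0.0969, adjusted p = 1.3e-10). SAT1, which breaks down polyamines, rose by 2.02, and FDXR, the mitochondrial ferredoxin reductase, rose by 1.40 from 10.3 to 13.3 CPM to 28.2 to 36.2 CPM.

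Of 10 tested long non-coding RNAs linked to p53, 5 rose, beside 2.14% of all genes. The count was 1 when only genes with at least 10 counts in every library were kept, which removes genes that are low in the control. PINCR was at 0.321, 0.156, 0.567 and 0.173 CPM in siNTC and 7.22, 9.28, 6.06 and 5.96 in si46. It had 7 counts over the 4 control libraries and 176 over the 4 si46 libraries, a ratio of 24.1 whose 95% interval for counting error alone is 11.5 to 60.8. PURPL, a regulator of basal p53 level, rose from 1.44, 1.56, 1.32 and 1.73 CPM to 17.0, 31.8, 17.7 and 18.6 CPM (3.78, SE 0.292). MIR34AHG, host of the microRNA miR-34a, rose from 7 counts to 106 (3.76), and LNCTAM34A, on the opposite strand of the same locus, from 3 counts to 48 (3.72). Whether the counting used strand is not given in the sources used here, so reads of these overlapping genes cannot be told apart. GAS5 rose by 0.54, whereas NEAT1 (1.25) and PVT1 (0.53) did not pass.

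A full p53 response element, searched for by its consensus on either strand, a decamer repeated with up to 13 bases between the copies, was found in 5 of 10169 promoters of tested genes (250 bases before to 50 after the RefSeq start, GRCh38.p14). Those of PURPL and LNCTAM34A are printed because both genes are among the steepest risers, with the element in capitals, 5′ to 3′ on the gene's strand.
PURPL: gcccaGGGCTTGTCTGGGCATGCCCacagt
LNCTAM34A: gctcgGAACAAGCCCAGGCAAGCCCaggca
The PURPL window is chr5:27472160-27472189 (plus strand), 127 bases before the start, and the LNCTAM34A window is chr1:9182139-9182168 (plus strand), 60 bases before the start. The remaining matches, in MCC (-0.20), DYNC2H1 (0.40) and PTCHD4 (0.86), belonged to genes that were not called. None of the 32 higher p53 target genes with a promoter in the table had a match in this window.

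**Figure D2:**
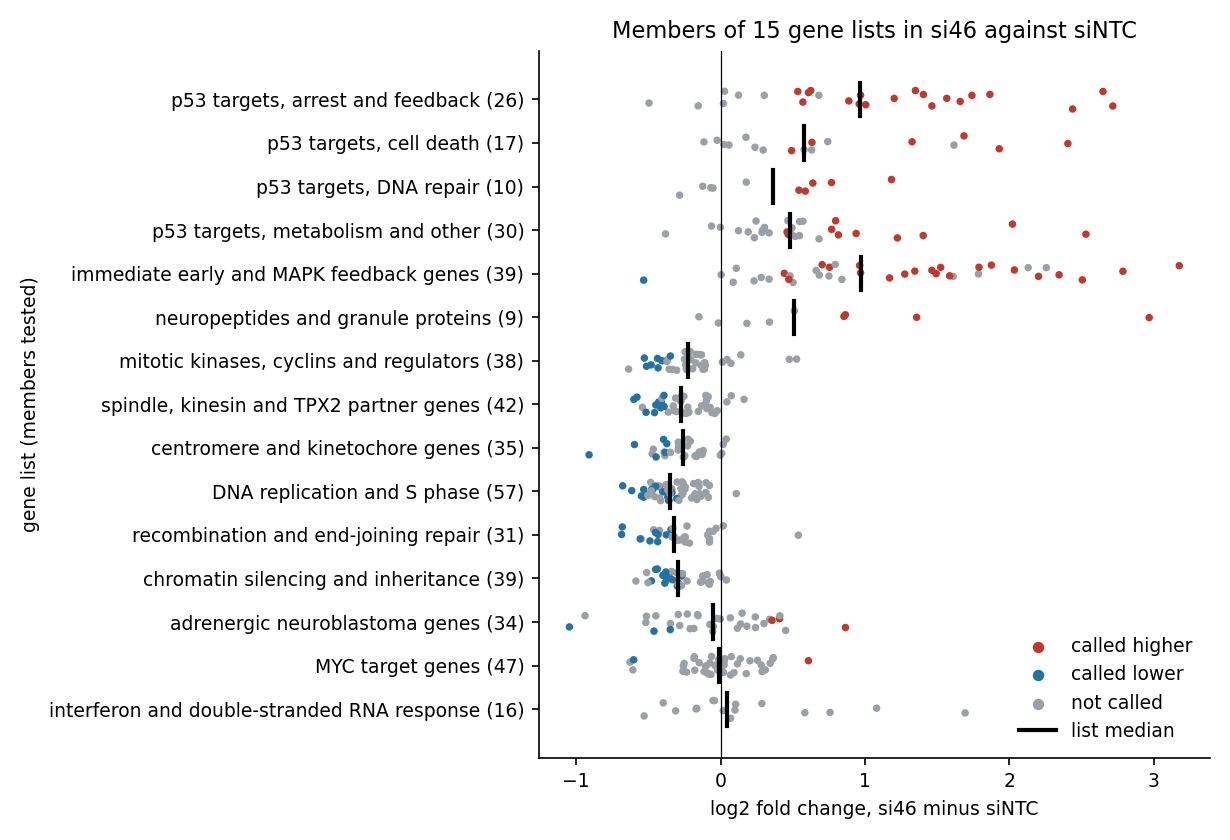
Each point is a tested gene of the list named on the y axis, placed by its log2 fold change, si46 minus siNTC; red points were called higher, blue lower and grey neither, and the black bar is the list median. The 4 p53 lists reach far to the right, the mitosis, replication and chromatin lists form compact clouds just left of 0, and 3 lists (immediate early, neuropeptide and chromatin genes) were chosen after the values had been seen.

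Genes of mitosis fell in the other direction, by small amounts. Of 115 tested members of 3 lists, 24 fell and none rose, with a median of -0.25, beside 1.25% of all genes called lower. The list score was -0.22, -0.29, -0.21 and -0.24 in the si46 libraries, against -0.05 to 0.03 in siNTC. In bulk RNA, fewer cells in a cell cycle phase and less RNA per cell cannot be told apart. The count of 24 became 8 without si46 replicate 4, 10 without si46 replicate 2, and 13 to 15 without si46 replicate 1 or any one of the siNTC libraries. The lowest counts were 2 for the kinases, cyclins and regulators, 3 for the spindle genes and 3 for the kinetochore genes, all without si46 replicate 4.

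Of the kinases, cyclins and regulators 7 of 38 fell. CDK1, the kinase that starts mitosis, had 133, 147, 137 and 157 CPM in siNTC and 101, 97.7, 104 and 109 in si46, a fall of 0.48 (SE 0.0957, adjusted p = 0.0019). The proliferation marker MKI67 went from 755, 774, 700 and 686 CPM to 538, 499, 527 and 479 CPM (-0.51). AURKB, the kinase of the chromosomal passenger complex, went from 332 to 417 CPM across siNTC to 252 to 298 CPM (-0.43, adjusted p = 0.021, and 0.090 without siNTC replicate 4). CKS2, a CDK1 subunit, did not pass (0.04).

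Spindle genes were called lower in 10 of 42 cases. The fall of ASPM, a spindle pole protein, was 0.42 (673 to 780 CPM in siNTC, 482 to 597 in si46), and that of the mitotic kinesin KIF15 was 0.46. CDCA2, which targets a phosphatase to chromosomes, fell by 0.60 (SE 0.105, adjusted p = 0.00048). KIF11, the motor that pushes spindle poles apart, had a change of -0.43 whose adjusted p of 0.038 became 0.13 without siNTC replicate 4. Of the centromere and kinetochore genes 7 of 35 fell. HJURP, the chaperone that loads the centromeric histone, fell from 102, 95.1, 106 and 108 CPM to 70.3, 62.7, 76.8 and 61.7 CPM (-0.60), and CENPI fell by 0.91 from 21.2 to 36.9 CPM to 14.9 to 19.7 CPM.

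The CHR element (TTTGAA or TTCGAA on either strand, which may overlap other motifs) was present in 37 of 134 promoters of lower genes (27.6%), 27 of 188 of higher genes (14.4%) and 1118 of all 10169 (11.0%). Within the mitosis lists it was present in 55 of 97 promoters, and in 14 of the 19 whose genes fell. The CCAAT box (CCAAT), common near CHR elements, was in 47% of promoters of lower genes, 43.1% of those of higher genes and 37.4% of all. These shares are descriptions, and a match is not shown to be a bound site. Windows of 30 bases around the CHR of 5 genes that fell are printed to show the element in its context, in capitals, 5′ to 3′ on the gene's strand; TTCAAA is the element read on the opposite strand.
MKI67: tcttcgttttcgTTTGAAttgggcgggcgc
HJURP: gacgcaaatttgTTTGAAaggcccaatcag
CDK1: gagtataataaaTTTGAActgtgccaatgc
KIF15: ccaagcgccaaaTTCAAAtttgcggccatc
ASPM: cggatgcaatcaTTCAAAtgaagcgccgcc
In RefSeq on GRCh38.p14 these lie at chr10:128126435-128126464 (minus strand), chr2:233854629-233854658 (minus), chr10:60778158-60778187 (plus), chr3:44761747-44761776 (plus) and chr1:197146765-197146794 (minus). The elements begin 29, 111, 161, 35 and 113 bases before the start.

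Genes of DNA replication and repair fell about as much. Of 88 tested members, 24 fell and none rose, beside 1.25% of all genes called lower. The median was -0.34, with si46 scores of -0.32, -0.33, -0.21 and -0.37. Of the S phase genes 15 of 57 fell. CDT1, which loads the MCM helicase on origins, went from 55.2, 61.5, 55.8 and 60.4 CPM to 33.3, 38.7, 41.1 and 39.1 CPM (-0.62, SE 0.115, adjusted p = 0.00093). The helicase subunit MCM4 had 276 to 283 CPM in siNTC, a very narrow range, and 182 to 226 in si46 (-0.48). The nucleosome assembly factor CHAF1A fell by 0.45 and ATAD2 by 0.53. E2F1, an activator of this gene group, fell from 248 to 270 CPM to 151 to 212 CPM (-0.55, adjusted p = 0.019, and 0.078 without si46 replicate 4).

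Repair genes that act in recombination fell in 9 of 31 cases. BRIP1, a helicase partner of BRCA1, went from 99.9, 124, 125 and 129 CPM to 74.4, 63.7, 97.0 and 61.7 CPM (-0.69), and the Fanconi anaemia protein gene FANCD2 fell by 0.56. BRCA1 fell by 0.45 and the DNA polymerase POLQ by 0.68, but without si46 replicate 4 their adjusted p was 0.059 and 0.072. The count of 24 over both lists became 7 without si46 replicate 4, 11 without si46 replicate 2 or either of siNTC replicates 1 and 4, and 14 or 15 without the other siNTC libraries or si46 replicate 1. Without si46 replicate 4 it was 5 for the S phase genes and 2 for the repair genes.

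An E2F site (TTTCCCGC, TTTGGCGC, TTTCGCGC or TTTGCCGC on either strand) was present in 31 of 134 promoters of lower genes (23.1%), 10 of 188 of higher genes (5.32%) and 559 of all (5.50%). In the replication and repair lists 30 of 74 promoters held one, and 12 of the 21 whose genes fell. Few promoters held both an E2F site and a CHR element, 4 of the 134 for lower genes. Windows of 5 genes that fell are printed in the same way, to set beside the CHR windows of the mitotic genes.
CDT1: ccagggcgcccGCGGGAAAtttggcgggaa
HELLS: gatgacaggatTTTCCCGCgaaggagaagc
FANCD2: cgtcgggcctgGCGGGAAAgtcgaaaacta
CLSPN: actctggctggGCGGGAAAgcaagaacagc
E2F1: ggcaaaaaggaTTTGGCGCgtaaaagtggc
They lie at chr16:88803743-88803772 (plus strand), chr10:94545769-94545798 (plus), chr3:10026424-10026453 (plus), chr1:35769965-35769994 (minus) and chr20:33686387-33686416 (minus), and the sites begin 35, 8, 2, 5 and 20 bases before the start. HELLS, a chromatin remodeller, fell by 0.40, and CLSPN, the checkpoint adaptor claspin, by 0.43 (adjusted p up to 0.070, without siNTC replicate 1).

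Replication-dependent histone genes did not move as a block. Of 41 tested, 6 rose and 2 fell, beside 2.14% higher and 1.25% lower over all genes. H2BC8 rose from 4.17, 3.13, 3.97 and 2.95 CPM to 23.3, 28.2, 10.3 and 21.0 CPM (2.54), H2AC25 by 2.06 and H2BC21 by 1.59. H2BC9 fell by 0.63 from 40.1 to 63.3 CPM to 24.3 to 38.4 CPM, and the linker histone H1-5 by 0.75. Without siNTC replicate 4 the adjusted p of the lower pair was 0.084 and 0.099, and without si46 replicate 2 the count of 6 was 3. The transcripts of these genes normally lack a poly(A) tail, and near-identical copies share reads, so their levels in a 3' end library are uncertain.

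A list of 43 immediate early genes and feedback genes of the MAP kinase pathway, 39 of them tested, was drawn up after the values had been seen, so its count describes and supports nothing by itself. Immediate early genes are switched on within minutes of a growth or stress signal. Of the 39 tested, 21 rose and 1 fell (over all genes, 2.14% and 1.25%), with a median of 0.97. EGR1, a zinc finger transcription factor of this class, had 8.02, 10.2, 9.27 and 7.29 CPM in siNTC and 46.8, 79.7, 39.7 and 75.3 in si46 (2.79, SE 0.356, adjusted p = 0.00060). JUN rose from 65.1, 64.0, 48.6 and 62.1 CPM to 180, 331, 141 and 231 CPM (1.88). In both genes si46 replicates 2 and 4 were highest and replicate 3 was lowest, which was also the order of the list score (0.74, 1.25, 0.52 and 1.13 in replicates 1 to 4).

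DUSP6, a phosphatase that inactivates ERK, rose from 1.6, 4.07, 3.22 and 5.72 CPM to 14.2, 26.9, 8.59 and 25.1 CPM (2.34), and DUSP4, a related phosphatase, rose by 1.49. IER3 (0.96), IER5 (0.97), ARC (1.28) and GADD45B (3.18) rose, and CCND1, the cyclin D1 gene, rose from 730 to 855 CPM to 941 to 1213 CPM (0.44). FOS (2.04), the ETS factors ETV4 (2.20) and ETV5 (1.59), and SPRY2 (1.52), an inhibitor of receptor tyrosine kinase signalling, were called, but their adjusted p reached 0.16, 0.093, 0.12 and 0.11 when 1 library was left out. Those libraries were si46 replicate 2 for FOS, siNTC replicate 2 for ETV4, siNTC replicate 1 for ETV5 and si46 replicate 4 for SPRY2. NAB1, a corepressor of EGR1, was the member called lower (-0.53, adjusted p = 0.028, and 0.11 without siNTC replicate 4). The count of 21 was 13 without si46 replicate 2, without si46 replicate 4, without siNTC replicate 1 and with limma-voom.

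**Figure D3:**
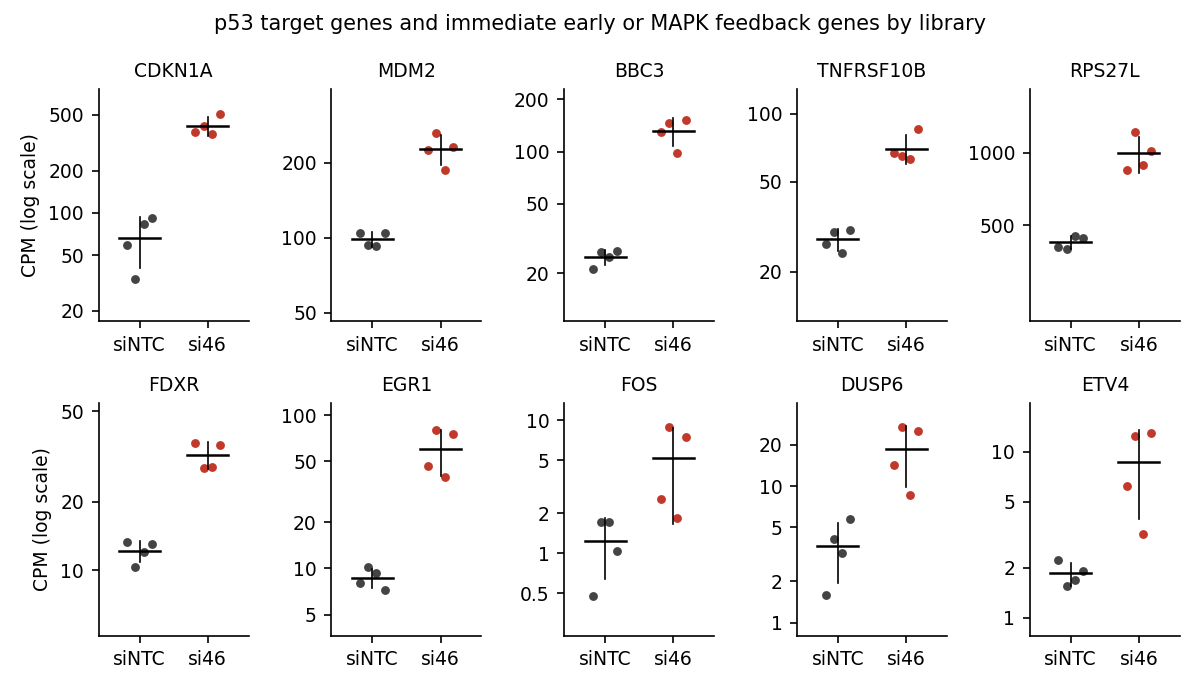
Levels in CPM on log y axes for 6 p53 target genes and 4 immediate early or MAP kinase feedback genes, with 1 point per library, the group mean as a bar and the SD as a vertical line (4 libraries a group). The 2 groups are apart in all 10 panels, and in EGR1, FOS, DUSP6 and ETV4 si46 replicates 2 and 4 lie above replicates 1 and 3.

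Inhibitors of differentiation (ID proteins) block basic helix-loop-helix factors. They and genes of the Notch pathway were in a second list drawn up after the values had been seen. Of 22 tested members 7 rose and none fell (over all genes, 2.14% and 1.25%). ID2 rose from 178, 180, 194 and 165 CPM to 335, 373, 304 and 391 CPM (0.97, SE 0.110, adjusted p = 1.0e-06), ID1 by 0.60 and ID4 by 2.17. The Notch ligand DLL4 rose by 2.92 from under 1 CPM in each control library, while NOTCH1 (0.30), JAG1 (0.48) and HEY2 (-0.33) did not pass. The count of 7 was 4 without si46 replicate 2 or 4, or without siNTC replicate 1, 3 or 4.

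Markers of the adrenergic state, in which neuroblastoma cells resemble sympathetic precursors, went both ways. Of 34 tested genes 3 rose and 3 fell (over all genes, 2.14% and 1.25%), with a median of -0.05. LHX9, a LIM homeobox factor, fell by 1.05 (SE 0.158, adjusted p = 7.1e-05), from 61.7, 55.4, 53.1 and 67.3 CPM to 28.7, 24.9, 32.5 and 28.7 CPM. DBH, the enzyme that makes noradrenaline, fell from 228, 284, 199 and 224 CPM to 173, 187, 170 and 150 CPM (-0.46, adjusted p = 0.0057, and 0.055 without siNTC replicate 2). SOX4 rose by 0.41. The granule protein gene CHGA rose by 0.86 from 499 to 604 CPM to 789 to 1336 CPM, with an adjusted p of 0.046 that became 0.13 without siNTC replicate 1. HAND2 (0.24), GATA3 (0.15) and ISL1 (0.07), core factors of this state, did not pass. The count of 3 higher genes was 1 without si46 replicate 1 or 4, or without siNTC replicate 1, 2 or 4.

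MYCN, the amplified oncogene of this line, had 920, 1108, 891 and 941 CPM in siNTC and 1190, 1412, 1065 and 1465 in si46. The highest control lay above the lowest si46 library, and the change of 0.41 (SE 0.154) did not pass (adjusted p = 0.20). Of 47 tested MYC target genes 1 rose and 1 fell, near the 2.14% and 1.25% of all genes, with a median near 0. The riser, EIF4A1 (0.61, adjusted p = 0.046, and 0.18 without si46 replicate 1), overlaps a readthrough gene and small nucleolar RNA genes on its strand, so its level is uncertain. SLC29A2, a nucleoside transporter, fell by 0.60.

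Genes for axon growth and guidance moved little, with 2 higher and 3 lower of 43 (over all genes, 2.14% and 1.25%). The synaptic adhesion gene LRFN1 fell from 54.8, 55.8, 53.5 and 64.7 CPM to 30.8, 22.9, 33.8 and 28.3 CPM (-0.98, adjusted p = 0.00055). SCG2, a precursor of secreted neuropeptides, rose by 0.85, and the semaphorin receptor PLXNA2 by 0.63 (adjusted p = 0.0088, and 0.075 without si46 replicate 2). The count of 3 lower genes was 1 without si46 replicate 1, 2 or 4 or siNTC replicate 4.

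Responses that an siRNA or its delivery can set off were examined next. Cells of both groups were transfected with an siRNA, so a response shared by both does not show in this comparison. None of 16 tested genes of the interferon and double-stranded RNA response, from a list of 34, was called by edgeR, and 3 had an unadjusted p under 0.05. A single gene was called by DESeq2, and by edgeR with no count filter, with only the groups compared, with the replicate block, and without si46 replicate 1 or siNTC replicate 1. The nearest were ISG20 (1.69, adjusted p = 0.059) and PARP9 (1.08, adjusted p = 0.13). Over all genes 2124 of 14193 had an unadjusted p under 0.05, and 2.14% were called higher and 1.25% lower. None of 16 is near those shares, so the count does not show that the response was absent. Of 35 genes of the ATF4 pathway and the unfolded protein response 4 rose and 1 fell (over all genes, 2.14% and 1.25%). PPP1R15A, a phosphatase subunit that restores translation after stress, rose from 9.46, 13.8, 14.6 and 12.7 CPM to 22.9, 34.7, 22.4 and 33.9 CPM (1.17), and SESN2, also a p53 target, by 1.41. The count of 4 was 2 without si46 replicate 1, 2 or 4 or siNTC replicate 1 or 4, and 7 without si46 replicate 3. Of 22 tested sterol synthesis genes 2 were called lower and none higher (over all genes, 1.25% and 2.14%), with a median of -0.16. These were SQLE (-0.31) and FDPS (-0.34), and without siNTC replicate 1 their adjusted p was 0.15 and 0.14.

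Genes of small nuclear, nucleolar and Cajal body RNAs rose in 37 of 146 cases and fell in none, with a median of 0.37. Over all genes tested, 2.14% were called higher and 1.25% lower. These RNAs act in splicing and in the modification of ribosomal RNA, and most have no poly(A) tail. The 37 genes were picked by their call in this comparison, so a larger share in si46 was fixed in advance. They took up 0.00652% to 0.00844% of the counts of a siNTC library and 0.0276% to 0.0537% of an si46 library. The other 109 held 0.310% to 0.458% and 0.341% to 0.479%. By family, 8 of 18 genes of U1 RNA rose, 3 of 5 of U4, 2 of 4 of U5, 4 of 32 of U6, 10 of 23 box C/D and 8 of 31 box H/ACA small nucleolar RNAs, and none of 11 Cajal body RNAs. Outside these classes 5 of 8 genes or copies of 7SK RNA, 2 of 29 of 7SL and 3 of 47 of Y RNA rose.

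SNORD13, which guides acetylation of ribosomal RNA, rose from 5.61, 9.38, 7.56 and 5.55 CPM to 94.4, 60.7, 62.1 and 79.2 CPM (3.40, SE 0.279, adjusted p = 3.9e-06). SNORD46, a box C/D RNA, rose from 0.962, 1.41, 2.46 and 1.39 CPM to 44.7, 36.2, 14.3 and 22.7 CPM (4.26). RNVU1-28, a variant U1 gene, rose by 3.35 and RNU4-2, a U4 gene, by 2.46, in both with si46 replicate 3 lowest and replicate 1 highest. The Y RNA gene RNY4 rose from 7.11 to 10.9 CPM to 22.2 to 40.5 CPM (1.82). HEXIM1, whose protein binds 7SK RNA to inhibit the elongation kinase P-TEFb, rose from 38.3 to 43.6 CPM to 82.5 to 145 CPM (1.38, adjusted p = 0.00066).

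Last bases of 3 of these RNAs, from GENCODE release 29 on GRCh38, are printed because the library kit primes on runs of A, and all are in lower case with no part marked.
RNVU1-28: agtgggggactgcgttcgcgctttcccctg
RNU4-2: attggcaatttttgacagtctctacggaga
SNORA2B: taatggtcaattcattagaaagaaacatga
Their genes lie at chr1:144560666-144560829 (minus strand), chr12:120291763-120291903 (minus) and chr12:48667457-48667593 (minus), and each stretch is the 3' terminal 30 bases. A run of 6 or more A was present in 1 of the 37 higher genes and in 8 of the 109 not called. Copies of U1, U4, U6 and 7SK are near-identical, and intronic genes lie within their hosts, so which copy a read came from is uncertain. The count of 37 became 8 when only genes with at least 10 counts in every library were kept, which removes genes that are low in the control. Leaving out si46 replicate 1 gave 18 and si46 replicate 2 gave 21, and each of siNTC replicates 1, 3 and 4 gave 23.

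**Figure D4:**
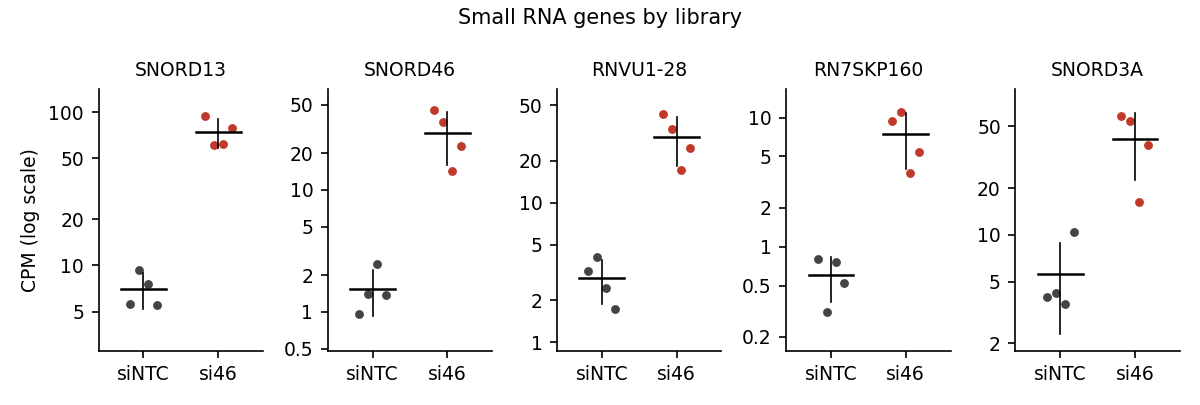
Levels in CPM on log y axes of 5 small RNA genes, with 1 point per library, the group mean as a bar and the SD as a vertical line (4 libraries a group). The groups are apart in every panel; RN7SKP160 is a copy of 7SK RNA and SNORD3A is a U3 gene.

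Beyond these groups, the steepest risers with enough counts included CYP4F3, a cytochrome P450 that inactivates leukotriene B4, from 1.28, 0.313, 1.32 and 0.173 CPM to 10.6, 21.3, 4.88 and 16.2 CPM (4.07). RGS16, an inhibitor of G protein signalling, rose by the same 4.07 with a larger error (SE 1.0, adjusted p = 0.042, and 0.13 without siNTC replicate 2). The smooth muscle actin gene ACTA2 rose from 0.763 ± 0.332 CPM (SD, n = 4) to 7.96 ± 3.13 CPM (3.34), and VIP, a neuropeptide precursor, from 1.6, 2.03, 3.97 and 2.26 CPM to 15.4, 16.9, 21.5 and 22.9 CPM (2.97). ACTA2 and VIP were picked after their values were seen. Of the higher genes, 38 had at most 3 counts in each control library.

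CCKAR, the cholecystokinin A receptor gene, fell about as far as TPX2. It went from 11.9, 15.2, 7.75 and 10.9 CPM to 4.05, 2.18, 3.54 and 1.12 CPM (-2.03, SE 0.331, adjusted p = 0.00017). The cadherin gene CDH7 fell from 21.2, 26.7, 18.3 and 25 CPM to 15.1, 5.46, 10.1 and 5.40 CPM (-1.31). The antisense RNA ZNF337-AS1 (-1.36), LYPD6 (-1.35), SGCE (-1.12) and LRRC26 (-1.08) were called at lower levels, and all 4 lost the call when some single library was left out, with the highest adjusted p, 0.13, for LRRC26 without siNTC replicate 1. Without strand, reads of ZNF337-AS1 and of genes on the opposite strand cannot be told apart.

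Where si46 differs from the other TPX2 siRNAs was tested directly, in the same fit. Against si45, 4 genes passed (0.0282%, with 582 at an unadjusted p under 0.05), and against si47, 7 genes (0.0493%, with 1034). TPX2 did not pass in either test (-0.16 against si45, 0.20 against si47). VDAC1 was the gene that passed both. VDAC1 (ENSG00000213585, chromosome 5, 133971915 to 134005133, minus strand, GRCh38) encodes the main channel of the outer mitochondrial membrane. It had 194, 180, 173 and 201 CPM in siNTC, 238, 221, 201 and 218 in si45, 190, 217, 187 and 209 in si47, and 117, 122, 113 and 128 in si46.

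The si46 libraries were thus below all 12 others. VDAC1 was lower by 0.64 against siNTC (-0.64, SE 0.0855, adjusted p = 6.8e-06), by 0.87 against si45 (-0.87, adjusted p = 8.5e-08) and by 0.74 against si47 (-0.74, adjusted p = 4.6e-06). Its paralogues VDAC2 (0.16, adjusted p = 0.41) and VDAC3 (-0.04, adjusted p = 0.92) did not pass against siNTC, nor did the other 10 tested genes of mitochondrial import and VDAC partners. SPCS3, a subunit of the signal peptidase of the endoplasmic reticulum, was at 161 to 179 CPM in siNTC, 158 to 171 in si45, 121 to 170 in si47 and 114, 93.7, 121 and 108 in si46. It was lower in si46 than in siNTC (-0.61, adjusted p = 0.00010) and than in si45 (-0.58, adjusted p = 0.0036), and did not pass against si47 (-0.37, adjusted p = 0.20).

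Other differences lay in how far the si47 or si45 group had moved. SOX4, a transcription factor of neural precursors, rose in si46 by 0.41 from siNTC and was lower in si46 than in si47 (-0.46, SE 0.0799, adjusted p = 0.0081). MAPK6 and HSP90B1 were higher in si46 than in si45 (0.74 and 0.60) with changes of 0.07 and -0.02 from siNTC. ENTREP3 (0.49), AK4 (0.80), the ribosomal protein gene RPL14 (0.49) and its processed copy RPL14P1 (0.56) were higher in si46 than in si47, and none of them passed against siNTC. RPL14 and RPL14P1 can share reads. The si47 count of 7 was 2 without si46 replicate 3, 3 and 4 without si47 replicates 1 and 2, and 23 without si47 replicate 3. The si45 count of 4 was 7 without si46 replicate 1. With no count filter or with DESeq2 both direct counts were higher. They were highest with the replicate block, which adds a term for the replicate number, at 33 against si45 and 108 against si47. Among the 108 were 8 p53 target genes, lower in si46, and 8 mitosis, replication and repair genes, higher in si46. None of these passed without the block.

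**Figure D5:**
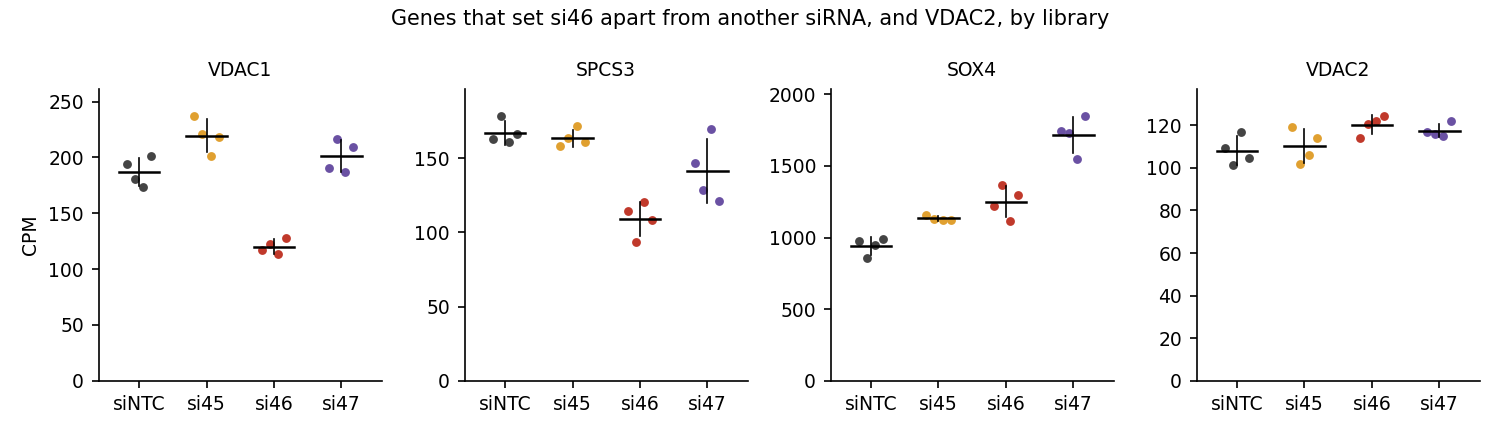
Levels in CPM, on y axes that start at 0, of 3 genes that differed between si46 and another TPX2 siRNA and of VDAC2, with 1 point per library, the group mean as a bar and the SD as a vertical line (4 libraries a group). In VDAC1 all 4 si46 points lie below the 12 others, whereas in SOX4 the si46 mean lies between siNTC and si47.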

How the data were processed

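The authors deposited raw counts per Ensembl gene, whole numbers that were not normalized, for 16 libraries. The submitters' processing notes name FastQC 0.11.7, STAR 2.7.2b, edgeR 3.36.0, limma 3.50.3 and GRCh38. The counter, the annotation, the use of strand and the handling of duplicate reads are not given in the sources used here, and 15 PCR cycles were used, per the labels' protocols. Reads of similar copies or overlapping genes may therefore be split or doubled, and intervals cover counting error only.

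Column names gave the siRNA and replicate of each of the 4 si46 and 4 siNTC libraries. Counts were fitted with edgeR 4.0.16 (R 4.3.3) over all 16 libraries: filterByExpr (minimum count 10, total 15), TMM scaling and a quasi-likelihood fit, robust, with 1 mean for each of the 4 groups, with Benjamini-Hochberg adjustment over the 14193 genes tested. The standard error is the log2 fold change divided by the square root of F. The pipeline was tested on simulated data. Mitochondrial genome genes were not analysed here, and some genes are not reported here. Symbols matched 58434 identifiers. Positions come from GENCODE release 29 and promoters from RefSeq (GRCh38.p14). Gene lists carry counts and medians only.

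The members and lists were chosen with earlier results of these data known. Genes named were TPX2, AURKA and MYCN, the 10 highest and 10 lowest changes with a mean of at least 20 counts and groups apart, every gene past a direct test, up to 5 called members per list (or the 2 of lowest p where none was called), any called against its list, the 3 highest called long non-coding and nucleolar RNAs with a mean of at least 10 counts, and VDAC1, VDAC2 and VDAC3; further genes, and the immediate early, ID and Notch, neuropeptide and chromatin lists, were chosen after their values were seen. Alternatives tried were DESeq2 1.42.0, limma-voom 3.58.1, scaling by RLE or the upper quartile, other count filters, only the groups compared, the replicate block, stricter thresholds, and each library left out.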

Additional observations from a re-analysis of the deposited data

Results flagged for a closer look

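Some values stood apart from the other 3 libraries of their group by Dixon's criterion at the 95% level. This was the case in 13 of 280 groups of 4 values examined, and chance gives about 14. In siNTC, the p53 target score of replicate 3 was high (0.0480). RRM2B was high in replicate 4 (9.71 CPM), SNORA2B was 0.313 CPM in replicate 2 and 0 in the others, SNORD83A was high in replicate 4 (1.39 CPM), and TBX2 was high in replicate 3 (493.8 CPM). In si46 replicate 1 the scores of the BCL2 family (0.165) and of sterol synthesis (-0.206) were low. In si46 replicate 3, DDB2 was high (27.9 CPM) while GAS5 (190.6 CPM) and PHLDA3 (37.2 CPM) were low. POLQ was low in si46 replicate 4 (21.4 CPM), and PURPL was high in replicate 2 (31.8 CPM) and RRM2B in replicate 4 (20.3 CPM).

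The direct tests found effects that differed between siRNAs. Against si45 these were VDAC1 (-0.87), MAPK6 (0.74), SPCS3 (-0.58) and HSP90B1 (0.60), with the si46 value minus the si45 value in parentheses. Against si47 they were VDAC1 (-0.74), SOX4 (-0.46), ENTREP3 (0.49), RPL14P1 (0.56), AK4 (0.80) and RPL14 (0.49).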

How the results depend on the processing

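With other scalings, tools, count filters and samples, the replicate block, or 1 library left out, TPX2 stayed between -2.07 and -1.89 and the count of 40 higher p53 targets between 31 and 46. The count of si46 vs siNTC genes changed, 482, became 631 with only the groups compared and 1073 with the replicate block. It was 189 at an adjusted p under 0.01, 186 at 2-fold or more, and 252 to 532 when 1 library was left out. Direct calls against si45 (4) were 10 with DESeq2, 14 with no count filter, 33 with the replicate block, 0 at 2-fold or more and 4 to 7 with 1 library left out. Those against si47 (7) were 28, 44, 108 and 0 in the same order, 4 with only the groups compared and 2 to 23 with 1 library left out. The 24 mitosis genes became 38 with the block and 8 to 20 with 1 library left out, and the 24 replication and repair genes 47 and 7 to 24. The 21 immediate early genes became 13 with limma-voom and 13 to 23 with 1 library left out. The 37 small RNA genes became 8 at 10 or more counts in every library and 18 to 37 with 1 library left out. Replicate numbers were not taken as pairs: same-numbered si46 and siNTC libraries correlated at 0.0387 to 0.112, over 0.1 in 1 of 4, and 5 of 8 libraries correlated best with their own number. With si45 the range was 0.0716 to 0.247 and with si47 0.0854 to 0.209, in both over 0.1 in 3 of 4, and 8 of 8 libraries correlated best with their own number, a hint from the data and not the design. With the block, 8 p53 target genes (among them BBC3, -0.72, and MDM2, -0.32) were lower and 8 mitosis, replication and repair genes (among them POLQ, 0.63, and E2F1, 0.35) higher in si46 than in si47, none of which was called without it, and 0 were called against si45. Changes from siNTC that were not called turned sign with 1 library left out for HSP90B1 (-0.0988 to 0.0590), RPL14P1 (-0.0995 to 0.0221) and VDAC3 (-0.127 to 0.0570). Among 113 named genes, 61 of 97 called ones passed without each of the 8 libraries in turn. Other scalings gave 63.6% to 64.6% of calls higher, against 63.1%. The cause of these shifts was not tested. At this depth the smallest fall called was -0.27 and the smallest rise 0.28.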

Other observations

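A list of 39 genes of chromatin silencing and chromatin inheritance, put together after the values had been seen, held 16 lower genes and no higher one. Over all genes, 1.25% were lower and 2.14% higher. EZH2, the methyltransferase of the Polycomb complex PRC2, went from 271, 248, 252 and 237 CPM in siNTC to 200, 192, 179 and 173 CPM in si46 (-0.44, SE 0.0865, adjusted p = 0.0017, edgeR). NASP, a chaperone of histone H3 and H4, went from 780 to 836 CPM to 606 to 645 CPM (-0.37, adjusted p = 0.0067). DNMT1, the maintenance DNA methyltransferase, changed by -0.28 (adjusted p = 0.048, and 0.17 without siNTC replicate 1). In place of 16 the count was 4, 9 and 8 without siNTC replicates 1, 2 and 3, and 7, 7 and 6 without si46 replicates 1, 2 and 4.

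A list of 20 neuropeptide and secretory granule genes, 9 of them tested, was also put together after the values had been seen. It held 4 higher genes (over all genes, 2.14%), and 2 without any one library other than si46 replicate 3. Of these VIP and SCG2 passed with any one library left out, while VGF (1.36, adjusted p = 0.026) reached an adjusted p of 0.089 without si46 replicate 2 and CHGA one of 0.13 without siNTC replicate 1. CHGB (0.18), GAL (0.51) and ADCYAP1 (-0.15) did not pass. IGFBP5, a secreted binder of insulin-like growth factors, fell from 180, 207, 140 and 172 CPM to 99.1, 80.0, 117 and 75.1 CPM (-0.91, adjusted p = 0.0012). MALAT1, an abundant nuclear long non-coding RNA, rose by 0.43 (adjusted p = 0.048, and 0.17 without si46 replicate 2).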
